A study of Mus musculus with 4 samples.

Results

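The core circadian clock genes are 10 of the 22155 gene symbols in the count table, taken by symbol: the activators Arntl, Clock and Npas2, the repressors Per1, Per2, Per3, Cry1 and Cry2, and the REV-ERB receptor genes Nr1d1 and Nr1d2. All 10 were present and all 10 passed the filter on low counts, among 13309 genes tested. Messenger RNA was sequenced from whole liver of wild-type C57BL/6 mice aged 8 to 10 weeks. All mice had 10 days of a liquid Lieber-DeCarli diet holding 5% ethanol. The group labelled "chronic ethanol + gavage 9 hour" also had a binge of 5 g ethanol per kg body weight given into the stomach, 9 h before the liver was taken, and the group labelled "chronic ethanol alone" had the diet without it. Each group held 2 libraries. The labels used here name no ethanol-free mice, no sham gavage and no clock hour of killing for either group, so the gavage and the time of day cannot be told apart. They do not state whether different mice gave the paired libraries of a group, and a p-value therefore reflects only how far these libraries scatter, which may be technical.

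The mammalian clock is a loop of transcription. BMAL1, the protein made from Arntl, pairs with CLOCK or with its relative NPAS2 and switches on genes that carry an E-box, among them the Per, Cry and Nr1d genes. PER and CRY proteins then return to the nucleus and shut BMAL1 off, while REV-ERB proteins compete with the activating ROR receptors at ROR elements and hold Arntl, Npas2 and Nfil3 down. In freely fed mice the liver transcripts peak one after another: Arntl, Npas2, Clock and Nfil3 around dawn, Nr1d1 in the day, Nr1d2, Per3, Dbp and Tef late in the day, Per1 and Per2 around nightfall, and Cry1 in the night.

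The DNA elements of this loop could be read around the starts of several members. RefSeq windows of 300 bases on GRCm38.p6, from 250 before to 50 after a transcription start, were found for 9 of the 10 members, 13 windows in all, and not for Per2. They were searched on both strands for the E-box CACGTG, the E-prime box CACGTT, the D-box as TTATGTAA or TTACGTAA, and the ROR element as TAGGTCA or TGGGTCA. At least 1 match was found for 6 members. This count pools all elements over all windows of a gene, and no such share over all genes was computed. Over all 32851 windows, 7.15% held an E-box, 4.68% an E-prime box, 1.06% a D-box and 6.45% a ROR element. The matches below are shown with their neighbouring bases, since E-boxes, D-boxes and ROR elements are the sites known for the loop described above. Each is 30 bases written 5′ to 3′ along the gene, with the match in capitals. Matches to the opposite strand appear in reverse complement.
Arntl, ROR element, second start: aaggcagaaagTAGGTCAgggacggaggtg
Nfil3, ROR element: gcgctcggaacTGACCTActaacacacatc
Per3, D-box farther from the start: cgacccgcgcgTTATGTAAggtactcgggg
Per3, D-box nearer to the start: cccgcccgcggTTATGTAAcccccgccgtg
Per1, E-box: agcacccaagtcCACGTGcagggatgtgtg
Cry1, E-box: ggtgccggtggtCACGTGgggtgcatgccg
Cry1, E-prime box: acacacttcagaAACGTGaggtgccggtgg
Nr1d1, E-prime box: cgcacagatctcAACGTGccggctgctgga
The Arntl stretch lies at chr7:113207530-113207559 on the plus strand, with its match beginning at base 31 after the start. The Nfil3 stretch lies at chr13:52981033-52981062 on the minus strand, with the match beginning 12 bases before the start. The Per3 stretches lie at chr4:151044852-151044881 and chr4:151044805-151044834 on the minus strand, and no other of the 9 members with a window held a D-box match. The Per1 stretch lies at chr11:69098771-69098800 on the plus strand. The Cry1 stretches lie at chr10:85185097-85185126 and chr10:85185116-85185145 and the Nr1d1 stretch at chr11:98775388-98775417, all on the minus strand. Cry2 also held 1 E-prime box match. No match was found in the windows of Clock, Npas2 and Nr1d2. Output genes, which carry the rhythm to other genes, were searched in the same way, as were Rora and Rorb. Besides Nfil3, matches were found for Tef, Bhlhe41, Ciart and Rorb. The windows of Dbp, Hlf and Rora held none, and Bhlhe40 had no window. A match describes letters in a window and not a bound site.

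**Figure D1:**
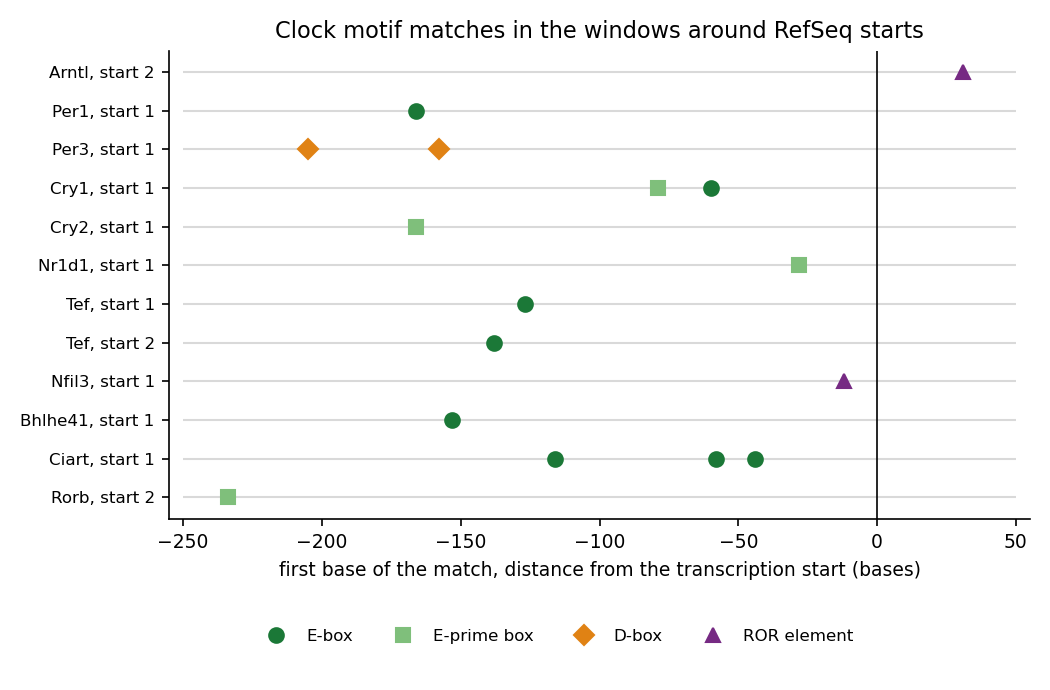
Positions of motif matches in RefSeq windows around transcription starts, one line per start with a match, for core clock genes, output genes and Rorb; the x axis is the distance of the first base of the match from the start, in bases. The 2 D-box matches of Per3 lie at -205 and -158, and the ROR element matches of Arntl and Nfil3 at 31 and -12.

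The libraries held 28791281 to 30347558 counts. Hepatocyte markers dominated all of them: 5 of the 6 listed were in the table, and their summed level ran from 103200 to 137160 CPM, counts scaled to a common library size, with sizes adjusted by TMM (a correction for composition). Of these 5, 4 had a lower mean after gavage and 1 a higher one, and their sums overlapped between the groups. Their median log2 fold change was -0.67. All 6 Kupffer cell markers had a lower mean after gavage, with sums of 265 and 292 against 456 and 450 CPM. Of 5 neutrophil markers 4 had a higher mean, with sums of 13.1 and 3.29 against 2.27 and 1.82 CPM, and Ly6g and Mpo were at 0 in at least 1 library. All 4 stellate cell markers had a higher mean, with sums of 441 and 389 against 377 and 343 CPM. All 4 lymphocyte and all 5 erythroid markers had a lower mean, with sums that overlapped between the groups. Skeletal muscle markers summed to 254 and 510 CPM in the libraries numbered 1 of ethanol alone and gavage and to 7.43 and 0.365 CPM in those numbered 2, and adipose markers to 61.1 and 98.3 against 7.96 and 12.2 CPM, so that both followed the replicate number and not the group. The part of these markers in the results was not tested. In whole tissue, fewer cells of a type and less RNA per cell cannot be told apart.

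With the gavage, the activators Arntl and Npas2 and the repressor Nr1d1 stood lower and Per2 and Per3 higher, each without overlap between the groups. Clock, Per1, Cry1, Cry2 and Nr1d2 differed less, by at most 0.44 on the log2 scale in the fit. No member passed the adjusted test. The quasi-likelihood test of edgeR, adjusted by Benjamini-Hochberg over 13309 genes, called 0 of them (0%) at 0.05, and so 0 of the 10 members. Before adjustment the same test put 4 members under 0.05, where 18.8% of all genes tested reached it: Per3 was higher (8.91% of all genes were higher in this way) and Arntl, Npas2 and Nr1d1 were lower (9.85%). DESeq2 called these same 4 members, and so did the likelihood-ratio test of edgeR, against 8.84% and 4.13% of all genes, while limma-voom called 0 members and 0 genes. Without replicate 2 of ethanol alone, the log2 fold changes of Per2, Cry1 and Cry2 were 3.32, 0.78 and 0.56. Without replicate 1 of ethanol alone they were 1.06, 0.09 and 0.04. The 2 libraries of a group did not overlap those of the other for 7 of the 10 members, 4 higher and 3 lower, where 54.7% of all genes tested did not overlap (27.5% higher and 27.2% lower). The median absolute log2 fold change was 0.81 over the members and 0.34 over all genes tested.

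**Figure D2:**
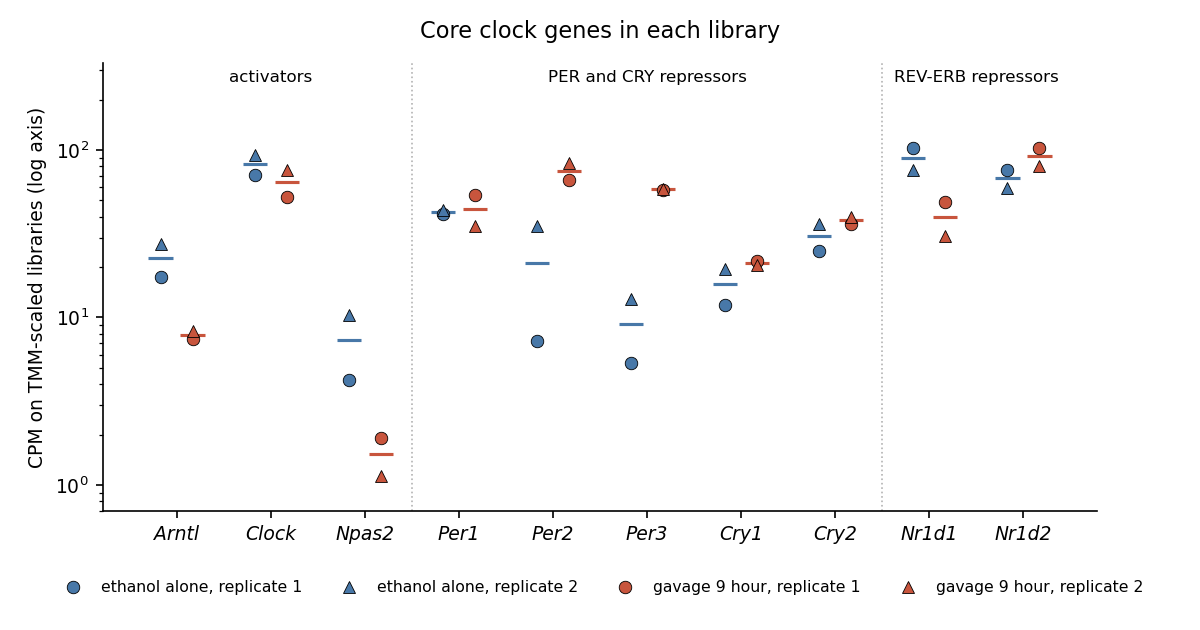
CPM of the 10 core clock genes in each library on a log axis; circles are replicate 1, triangles replicate 2, blue ethanol alone, red gavage 9 hour, and the short lines are group means of 2 libraries. Arntl, Npas2 and Nr1d1 lie lower and Per2 and Per3 higher in both gavage libraries, and the Per2 values of ethanol alone lie at 7.25 and 35.3 CPM.

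**Figure D3:**
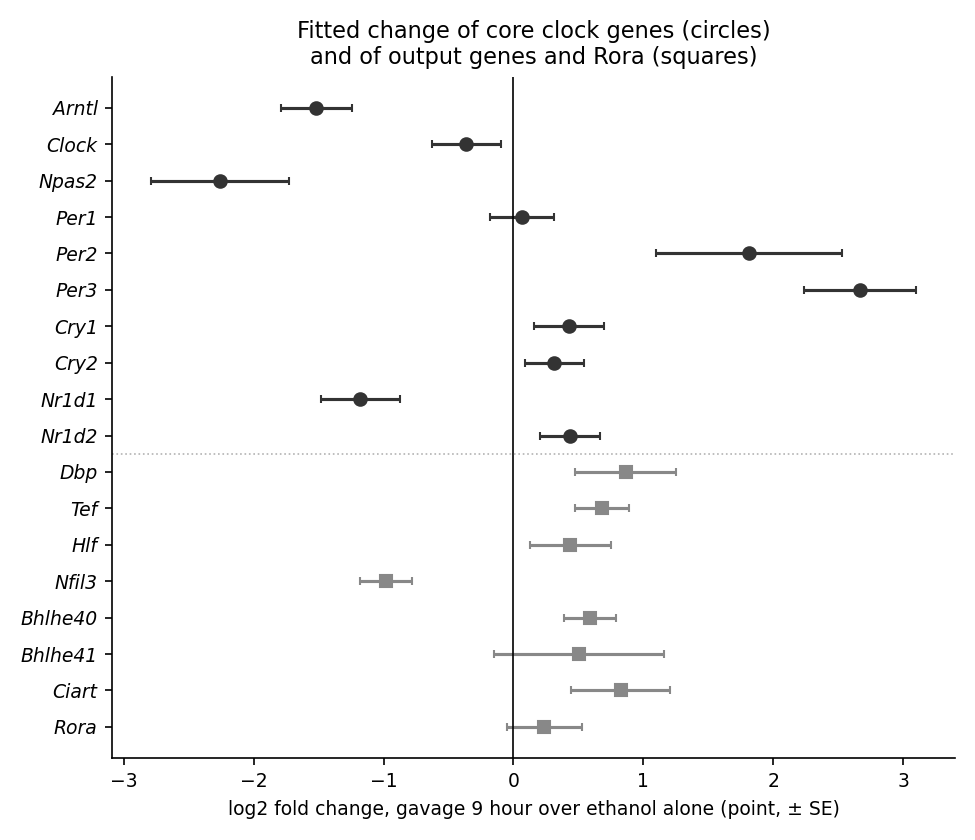
Fitted log2 fold change of gavage 9 hour over ethanol alone with its SE, for the core clock genes (circles) and for output genes and Rora (squares). The points run from -2.26 for Npas2 to 2.67 for Per3, and Nr1d1 and Nr1d2 lie on opposite sides of 0.

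Among the activators, Arntl (chromosome 7, 113207465 to 113314126 in GRCm38, whole gene with introns and UTRs), which makes the common partner BMAL1, stood at 17.5 and 27.6 CPM with ethanol alone and at 7.45 and 8.27 CPM with the gavage (replicate 1 first in each pair here and below). Both gavage libraries lay below both others, and the gavage pair was the closer one. The group means were 7.86 ± 0.579 against 22.5 ± 7.13 CPM (SD, n = 2 each here and below, gavage first). The log2 fold change was -1.52 (SE 0.27), and 3.72% of all genes tested had one at least as large in either direction. Its adjusted p was 0.133 in edgeR's quasi-likelihood test, and its log2 fold change ran from -1.84 to -1.21 when each library was left out in turn. The Arntl window with the ROR element match TAGGTCA is the second of its RefSeq starts.

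Npas2 (chromosome 1, 39193731 to 39363236), the relative of CLOCK that can replace it as a partner of BMAL1, stood at 4.25 and 10.3 CPM in ethanol alone and at 1.91 and 1.13 CPM with the gavage. Over the 4 libraries it was the member with the largest difference downwards, a fitted log2 difference of -2.26 (SE 0.53, adjusted p = 0.163 by edgeR's quasi-likelihood test), or 4.79-fold lower. These values rest on 116 and 313 counts against 60 and 34, the fewest of any member. The ethanol alone libraries differed 2.43-fold from each other, and leaving out 1 library moved the log2 fold change between -2.78 and -1.53. Within the libraries numbered 1 it was -1.12, and that of Arntl -1.22.

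Clock (chromosome 5, 76209868 to 76304792), which makes the usual partner of BMAL1 and is known for a weak daily rhythm in liver, stood at 71.3 and 93.9 CPM in ethanol alone and at 52.4 and 76.0 CPM with the gavage. The groups overlapped, and the log2 fold change of -0.36 (SE 0.27, adjusted p = 0.495 by edgeR's quasi-likelihood test) was near its error. Of the pair that can partner BMAL1, Npas2 therefore differed by more than Clock in relative terms. The log2 ratio of Npas2 to Clock counts, which no library scaling can alter, was -4.07 and -3.18 in ethanol alone and -4.78 and -6.07 with the gavage. It was lower in both gavage libraries.

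Among the repressors, Per3 (chromosome 4, 151003652 to 151044665), a period gene that is dispensable for the rhythm itself, stood at 5.35 and 12.9 CPM in ethanol alone and at 58.0 and 58.4 CPM with the gavage. The gavage libraries differed from each other by under 1%, the 2 others 2.42-fold. The means were 58.2 ± 0.310 against 9.13 ± 5.35 CPM. Over the 4 libraries Per3 had the largest log2 fold change of the members in either direction, 2.67 (SE 0.43), or 6.36-fold, a size reached by 0.819% of all genes tested. Npas2 had the larger one without replicate 1 of ethanol alone (-2.78 against 2.15), without replicate 1 of the gavage group (-2.69 against 2.68) and within the libraries numbered 2 (-3.12 against 2.17). The adjusted p of Per3 was 0.133 in edgeR's quasi-likelihood test and 7.58e-08 in DESeq2. Leaving out each library in turn gave log2 fold changes from 2.15 to 3.39. Its window holds both D-box matches, the element at which DBP, TEF and HLF activate and NFIL3 represses.

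Per2 (chromosome 1, 91415982 to 91459324), a period gene needed for a lasting rhythm, stood at 7.25 and 35.3 CPM in ethanol alone and at 66.0 and 84.0 CPM with the gavage. The groups did not overlap, but the 2 ethanol alone libraries differed 4.88-fold. Only 2.26% of all genes tested differed as much between those 2 libraries. The log2 fold change was 1.82 (SE 0.72, adjusted p = 0.266 by edgeR's quasi-likelihood test). It was 3.32 when replicate 2 of ethanol alone was left out and 1.06 when replicate 1 was.

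Per1 (chromosome 11, 69095217 to 69109960), the period gene that also answers quickly to glucocorticoids and cyclic AMP, did not follow the other Per genes. It stood at 41.3 and 44.1 CPM in ethanol alone and at 54.0 and 35.4 CPM with the gavage, so that the gavage libraries lay on either side of the others. The log2 fold change was 0.07 (SE 0.25, adjusted p = 0.91 by edgeR's quasi-likelihood test). It turned to -0.0032 when replicate 1 of ethanol alone was left out, and to -0.27 when replicate 1 of the gavage group was. The log2 count ratio of Per1 to Per2 was 2.51 and 0.32 in ethanol alone against -0.29 and -1.25 with the gavage, a ratio that was lower in both gavage libraries. Per kilobase of exon, Per1 lay above Per2 in both libraries of ethanol alone (7.33 against 1.24 and 7.83 against 6.04 CPM per kb) and below it in both of the gavage group (9.59 against 11.3 and 6.28 against 14.35).

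The cryptochrome genes make the direct inhibitors of the CLOCK and BMAL1 pair. Cry1 (chromosome 10, 85131700 to 85185064) stood at 11.9 and 19.6 CPM in ethanol alone and at 21.8 and 20.7 CPM with the gavage. The groups did not overlap, though by a narrow margin over replicate 2 of ethanol alone, and the log2 fold change was 0.43 (SE 0.27, adjusted p = 0.43 by edgeR's quasi-likelihood test). Cry2 (chromosome 2, 92403646 to 92434043) stood at 24.9 and 36.3 CPM against 36.1 and 40.1 CPM, with overlap and a log2 fold change of 0.32 (SE 0.23). Both were higher on average after gavage, and their log2 count ratio overlapped between the groups, at -1.06 and -0.89 in ethanol alone and -0.73 and -0.96 with the gavage.

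The REV-ERB genes make paired nuclear receptors that bind heme and repress at ROR elements, and they stood on opposite sides. Nr1d1 (chromosome 11, 98767932 to 98775333) was at 103 and 76.3 CPM in ethanol alone and at 49.0 and 30.5 CPM with the gavage. Both gavage libraries lay below both others, a fitted log2 difference of -1.18 (SE 0.30, adjusted p = 0.179 by edgeR's quasi-likelihood test), which is 2.26-fold lower. Nr1d2 (chromosome 14, 18204054 to 18239127) was at 75.9 and 59.6 CPM in ethanol alone and at 103 and 80.4 CPM with the gavage. All of its gavage values lay above, a fitted log2 difference of 0.44 (SE 0.23, adjusted p = 0.361 by the same test). The log2 ratio of Nr1d2 to Nr1d1 counts, a pair added after the values were seen, was -0.45 and -0.36 in ethanol alone and 1.07 and 1.40 with the gavage. Per kilobase of exon, Nr1d1 lay above Nr1d2 in both libraries of ethanol alone (33.6 against 14.03 and 24.8 against 11.02 CPM per kb) and below it in both of the gavage group (15.9 against 19.03 and 9.9 against 14.9 CPM per kb).

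Counting bears on Nr1d1, because 263 bases, 8.55% of its exonic length, overlap exons of Thra, a thyroid hormone receptor gene on the opposite strand. Whether the counting used strand is not stated in the labels, and without strand, reads from that overlap cannot be assigned to one gene. Thra stood at 17.98 and 19.0 CPM in ethanol alone and at 10.1 and 10.8 CPM with the gavage. It was thus lower in the same libraries as Nr1d1, at a smaller level. Exons of Cry2 and Arntl overlap noncoding genes of the opposite strand over 4.67% and 0.44% of their length. No exonic overlap was found for the other 7 members.

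Levels of different genes were compared per kilobase of exonic length, all exons of a gene joined. In ethanol alone the order of mean level was Nr1d1 at 29.2 CPM per kb, then Nr1d2 at 12.5, Per1 at 7.58 and Clock at 6.02. Below them came Cry2, Cry1, Per2, Arntl at 2.99, Npas2 at 1.52 and Per3, last at 0.9504 CPM per kb. The libraries of neighbours in that order overlapped for 5 of the 9 neighbouring pairs, which were those from Clock down to Arntl and the pair of Npas2 and Per3. With the gavage Nr1d2 led at 16.95 CPM per kb, followed by Nr1d1 at 12.9, Per2 at 12.8 and Per1 at 7.94. Then came Cry1, Per3 at 6.06, Cry2, Clock, Arntl at 1.04 and Npas2, last at 0.317 CPM per kb. Here 4 of the 9 neighbouring pairs overlapped: Nr1d2 with Nr1d1, Nr1d1 with Per2, Per1 with Cry1, and Per3 with Cry2. Per2 was thus in the third place and Per3 in the sixth, from the seventh and the last in ethanol alone.

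The balance of the loop was described by count ratios of 9 gene pairs within each library, which depend on no normalisation. For 7 of the 9 pairs the groups stood apart, with 6 ratios lower after gavage and 1 higher. Among those 6, the ratio of Npas2 to Nr1d1 stood apart only narrowly. It was -4.61 and -2.88 in ethanol alone against -4.68 and -4.75 with the gavage. The difference between its group means, -0.97, became -0.11 when the second ethanol alone library was dropped and -1.83 when the first was. The pairs share genes and are not independent, and no share over other gene pairs was computed. Of single genes tested, 54.7% did not overlap. With 2 libraries against 2, an exact permutation test cannot go below p = 0.333, so no test is given. The widest gap of the 9 was between Arntl and Per3, with log2 ratios of 1.71 and 1.09 in ethanol alone against -2.96 and -2.82 with the gavage, a difference of -4.29 between group means. Arntl against Per2 gave 1.27 and -0.36 against -3.15 and -3.34. Arntl against the output gene Dbp gave 0.57 and 0.47 against -2.33 and -1.29. In both ratios to a Per gene the gavage libraries lay close together, while those of ethanol alone were farther apart. Arntl and Nr1d1, an activator and its own repressor, kept overlapping ratios of -2.57 and -1.47 against -2.72 and -1.88, and both genes stood lower after gavage. The ratio of Cry1 to Nr1d1 was the one that was higher, at -3.12 and -1.96 against -1.17 and -0.56.

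**Figure D4:**
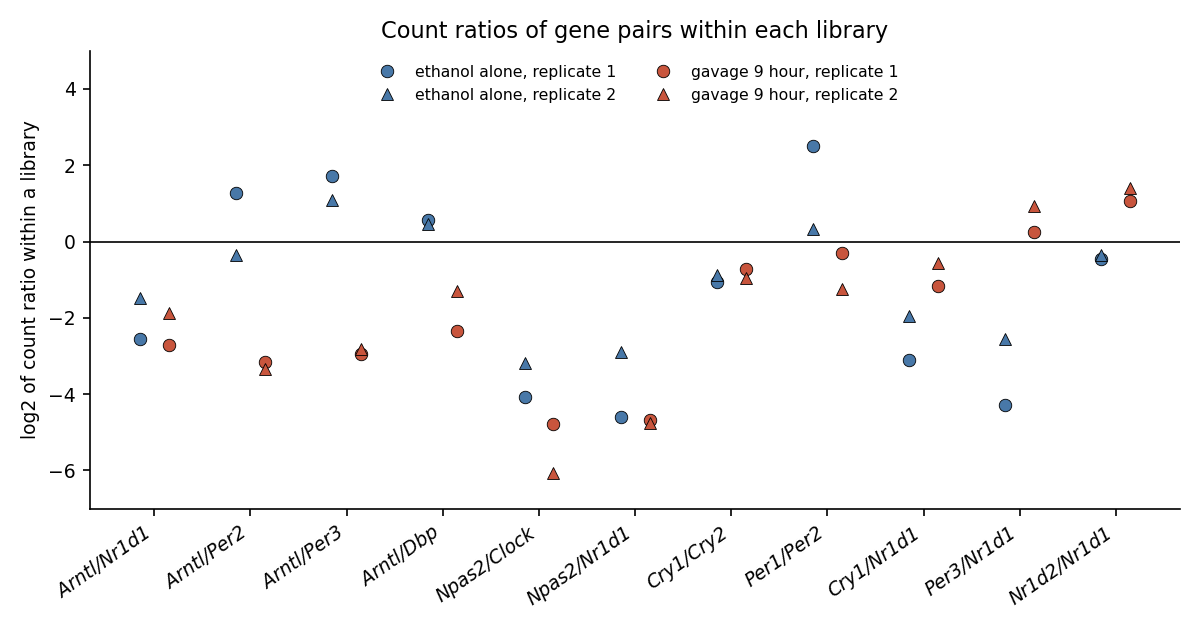
Log2 of the count ratio of gene pairs within each library, blue for ethanol alone and red for gavage 9 hour, circles for replicate 1 and triangles for replicate 2; the last 2 pairs were added after the values were seen. The ratio of Arntl to Per3 lies at 1.71 and 1.09 in ethanol alone and at -2.96 and -2.82 after gavage, while that of Arntl to Nr1d1 overlaps.

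The members and some of their partners can be read in the usual order of their peaks. Of the 4 genes that peak around dawn (Arntl, Clock, Npas2 and Nfil3), 4 had a lower mean after gavage, 3 of them without overlap, where 27.2% of all genes tested were lower without overlap. Nr1d1, with a peak in the day, was lower as well. Of the 4 that peak late in the day (Nr1d2, Per3, Dbp and Tef), 4 were higher without overlap, where 27.5% of all genes tested were, but Dbp by only 1.01-fold within the libraries numbered 2. Of the 2 that peak around nightfall, Per2 was higher without overlap and Per1 overlapped. Cry1, with a peak in the night, was higher without overlap, but by only 1.05-fold within the libraries numbered 2. Of the members and output factors not placed in this order, Cry2, Hlf and Bhlhe41 overlapped. Hlf, whose protein activates at D-boxes like DBP and TEF, stood at 50.5 and 84.6 CPM in ethanol alone. With the gavage it stood at 104 and 78.8 CPM. Bhlhe40 and Ciart, also not placed, were higher without overlap. These genes were grouped from textbook knowledge with the values known, so the counts depend on which genes were placed. The counts are a description, and no hour was measured.

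The 2 libraries of ethanol alone also differed from each other in the clock genes. Replicate 2 had 4.88-fold more Per2, 2.42-fold more Per3 and 2.43-fold more Npas2 than replicate 1. For 6 of the 10 members, the Per and Cry genes and Nr1d1, replicate 2 lay between replicate 1 and the mean of the gavage group. For Arntl, Npas2, Clock and Nr1d2 it lay outside that span. No share over all genes was computed for this count. The 6 include Per1, whose gavage libraries lay on either side of both ethanol alone values. In the gavage group Arntl, Per2, Per3, Cry1 and Cry2 agreed within 1.27-fold, while Npas2 and Nr1d1 were 1.69-fold and 1.61-fold and Per1 1.53-fold higher in replicate 1, and Clock 1.45-fold higher in replicate 2. Within the libraries numbered 1, which held the muscle and adipose markers, Per3 was 10.8-fold higher and Arntl 2.34-fold lower after gavage. Within those numbered 2, Per3 was 4.52-fold higher and Arntl 3.33-fold lower.

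**Figure D5:**
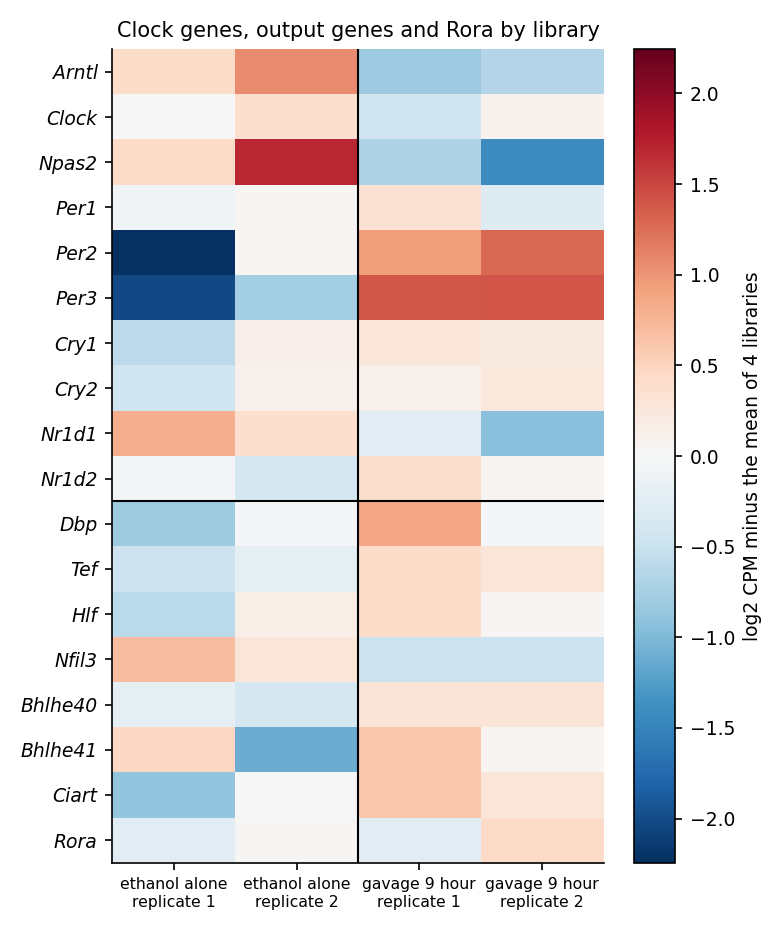
Log2 CPM of each gene minus its mean over the 4 libraries, with core clock genes above the line and output genes and Rora below; red is above and blue below the gene's own mean. Replicate 1 of ethanol alone holds the lowest Per2 and Per3 values, Arntl and Npas2 are red in ethanol alone and blue after gavage, and Per3 the reverse.

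Transcription factors that carry the rhythm to other genes were read as a list of 7, of which 0 passed the adjusted test and 2 were higher and 1 lower with a p under 0.05 before adjustment (edgeR's quasi-likelihood test). Of all genes tested, 8.91% were higher and 9.85% lower in that way, which is the background for this and the other lists. Over the 7 the median log2 fold change was 0.59, against 0.02 over all genes tested. Nfil3, the repressor at D-boxes, stood at 42.5 and 31.6 CPM in ethanol alone and at 18.9 and 18.6 CPM with the gavage. Tef, an activator at D-boxes, stood at 94.4 and 111 against 173 and 156 CPM. Dbp, its relative and a strongly rhythmic E-box target, stood at 11.8 and 19.9 against 37.5 and 20.2 CPM. The groups of Dbp did not overlap, but the second gavage library lay just above ethanol alone. Bhlhe40, a repressor at E-boxes, stood at 141 and 124 against 199 and 199 CPM, and Ciart, another repressor of CLOCK and BMAL1, at 1.94 and 3.67 against 5.54 and 4.42 CPM. Hlf and Bhlhe41 overlapped.

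Rora, which makes a receptor that activates Arntl where REV-ERB represses, stood at 110 and 132 CPM in ethanol alone and at 110 and 175 CPM with the gavage, with overlap. Rorb, its relative, did not pass the filter on low counts.

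Other genes under clock control formed a list of 5, of which 0 passed the adjusted test. Before adjustment, 2 were higher and 1 lower with a p under 0.05 in edgeR's quasi-likelihood test (8.91% and 9.85% of all genes tested). Wee1, a cell cycle kinase gene, stood at 2.01 and 6.84 CPM in ethanol alone and at 12.4 and 12.7 CPM with the gavage, and shared with Per2 and Per3 the low value in replicate 1 of ethanol alone. Nampt, the NAD-making enzyme, stood at 59.5 and 67.2 against 106 and 95.1 CPM. Alas1, the first enzyme of heme synthesis, stood at 368 and 455 against 180 and 293 CPM. Por and Usp2 overlapped.

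Genes of the enzymes that modify and degrade clock proteins differed little in size. Of 15 such genes 0 passed the adjusted test, with 1 higher and 1 lower with a p under 0.05 before adjustment, where 18.8% of all genes tested had such a p in either direction. Their median absolute log2 fold change was 0.23 against 0.34 over all genes tested. Csnk1e, a casein kinase of PER proteins and the one that was higher, stood at 10.3 and 9.25 CPM against 13.5 and 15.05 CPM. Skp1a, a ligase subunit gene and the one that was lower, stood at 225 and 185 against 114 and 140 CPM. Csnk1d, the close relative of Csnk1e, stood at 82.7 and 81.5 against 83.1 and 76.1 CPM. Counted by lack of overlap alone, 7 of the 15 were higher and 2 lower (27.5% and 27.2% of all genes tested). Of 11 cofactor genes 0 passed the adjusted test and 1 was higher and 0 lower with a p under 0.05 before adjustment, against the same 18.8%. The one was Timeless, at 2.16 and 3.14 CPM in ethanol alone and 4.39 and 4.75 CPM with the gavage. Without overlap, 8 of the 11 were higher and 1 lower (27.5% and 27.2% of all genes tested). Ep300, an acetyltransferase and coactivator, was among the 8, at 35.4 and 52.2 against 60.6 and 63.9 CPM, and the one lower was Hdac3, the deacetylase through which REV-ERB represses, at 40.2 and 39.6 against 30.1 and 32.6 CPM.

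Genes that respond to the body's timing cues were read as a list of glucocorticoid-induced genes and a list of genes responsive to heat or cold. In the fit, 3 of the 5 and 4 of the 6 were lower, where 6428 of the 13309 genes tested were. Of 5 glucocorticoid-induced genes 0 passed the adjusted test, with 0 higher and 2 lower with a p under 0.05 before adjustment, where 8.91% and 9.85% of all genes tested were. The 2 were Tsc22d3, which makes the leucine zipper protein GILZ, and Dusp1, a phosphatase gene. Tsc22d3 stood at 298 and 249 CPM in ethanol alone and at 83.02 and 63.5 CPM with the gavage. Dusp1 stood at 65.9 and 34.99 against 12.96 and 9.10 CPM, the largest difference of the list, fitted at -2.19 on the log2 scale (SE 0.37, adjusted p = 0.133 by edgeR's quasi-likelihood test). Zbtb16 was lower without overlap, and Fkbp5 and Sgk1 overlapped with a higher mean. Fkbp5 stood at 157 and 76.8 against 119 and 212 CPM. Per1, itself a glucocorticoid target, overlapped as given above. Of 6 temperature-responsive genes 0 passed the adjusted test, with 1 higher and 4 lower with a p under 0.05 before adjustment against the same shares of all genes, and a median log2 fold change of -1.20 over the 6. The 4 lower ones were chaperone genes induced by heat. Hspa1b stood at 12.5 and 37.99 CPM in ethanol alone and at 4.87 and 3.85 CPM with the gavage, and Hsph1 at 98.7 and 200.04 against 35.4 and 45.8 CPM. Hsp90aa1 stood at 42.2 and 71.8 against 21.7 and 26.2 CPM, and Dnajb1 at 43.5 and 42.8 against 21.9 and 16.97 CPM. The higher one was Rbm3, a cold-inducible RNA-binding protein gene, at 11.3 and 11.6 against 15.8 and 16.9 CPM. Cirbp, its relative, overlapped at 17.1 and 11.4 against 19.7 and 13.4 CPM.

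The genes with the pattern most like Arntl were those with the smallest root-mean-square distance of log2 CPM after each gene was centred on its own mean over the 4 libraries, among 11704 candidates of at least 1 CPM. They were Tjp3 (distance 0.036), Fam13a (0.085), Tiam2 (0.093), Inmt (0.11) and Hsp90aa1 (0.15). For Nr1d1 they were Cyp2c69 (0.055), Vegfb (0.064), H2-Aa (0.086), Lsm10 (0.088) and Rgs10 (0.089). The likeness describes these 4 libraries only. No other core clock gene was among the 5 nearest of either.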

How the data were processed

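Per the file header and the labels, the deposited values are whole-number read counts per gene symbol, not normalised, for 4 liver libraries. GRCm38, HTSeq, edgeR, STAR 2.6.0a and bcl2fastq 2.20.0.422 stand in the submitters' processing notes, which do not say how each was used. For annotation, strand and multi-mapped reads, the settings were not stated in the labels. Libraries were grouped by title.

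The analysis used edgeR 4.0.16 under R 4.3.3: filterByExpr by group (minimum count 10, total 15), TMM, and the 2-sided quasi-likelihood F-test over 13309 genes with no covariate, Benjamini-Hochberg at 0.05. CPM use TMM-scaled library sizes. Each SE is the size of the log2 change over the root of its F statistic. Scripts were tested on simulated data. Libraries of a group differed beyond sampling noise (chi-square per degree of freedom 147 and 157). Alternatives were DESeq2 1.42.0, limma-voom 3.58.1, the likelihood-ratio test, other scalings and filters, a replicate block and leaving out each library. Gene models came from GENCODE on GRCm38, promoters from RefSeq. All members were named, with the genes of fixed lists and the 5 genes nearest Arntl and Nr1d1. Some genes of these lists are not reported here and are in none of the list counts. Members and lists were chosen with earlier results of these data known. Comparing the numbered libraries separately was chosen after seeing the data.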

Additional observations from a re-analysis of the deposited data

How the results depend on the processing

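The count of 0 genes called by the quasi-likelihood test became 1177 with DESeq2 and 549 with the likelihood-ratio test, of which 4 and 4 were core clock genes, and lay between 0 and 31 when each library was left out, with 12 when the second library of ethanol alone was left out and 31 when the second gavage library was. The number of members called was 0 in each of these last fits, in which a lone library is assumed to vary like the other groups. Members at an unadjusted p under 0.05 numbered 3 to 7 there. With a replicate block 410 genes and 3 members (Arntl, Per3 and Nr1d1) were called. Deviations of same-numbered libraries from their group means correlated across genes at 0.587, but the labels do not say that the numbers mark pairs. The direction of each member was kept in all fits except that of Per1, which ran from -0.2701 to 0.3321 over the fits that left out a library and was below 0 (-0.0032 and -0.27) in the 2 that left out a replicate 1; the cause was not tested. Other scalings moved the median of all genes by at most 0.0766 on the log2 scale. Npas2 rests on the fewest counts of the members, 34 to 313 per library.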
